A study of Mus musculus with 8 samples.

Results

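A set of 10 genes of hepatic stellate cells and of the liver matrix were followed across all 8 liver libraries of the series: Tagln, Acta2, Des, Sparc, Col1a1, Col1a2, Col3a1, Timp1, Pdgfrb and Lrat. They were taken by matching these symbols to the Ensembl gene identifiers of the count table through the GENCODE mouse annotation on GRCm38. All 10 symbols had 1 row each among the 23006 rows of the table, and all 10 passed the filter on low counts, as did 16876 genes in all.

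RNA of wild-type (WT) mouse liver was sequenced in 4 groups of 2 libraries. The SLIT2+APAP group had received SLIT2, a secreted ligand of ROBO receptors, injected into the peritoneum (2 µg per animal, 3 days), together with acetaminophen (APAP) at 400 mg/kg. The APAP group had received saline and the same dose of APAP, the SLIT2 group SLIT2 without APAP, and the control group phosphate-buffered saline (PBS). Livers of the APAP-treated animals were collected 24 h after that dose. Strain, sex and age are not in the labels, and they do not tie libraries to single animals, so p-values measure only the spread between these libraries, which may be technical.

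Stellate cells lie between hepatocytes and the sinusoidal endothelium, store vitamin A as retinyl esters made by the enzyme that Lrat encodes, and carry the platelet-derived growth factor receptor Pdgfrb. After injury they can turn into contractile myofibroblasts, which build smooth muscle actin (Acta2) and transgelin (Tagln), secrete the fibrillar collagens of types I and III, and make Timp1, an inhibitor of matrix-degrading metalloproteinases. Desmin (Des) is an intermediate filament protein of rodent stellate cells that skeletal and smooth muscle also hold, and Sparc is a collagen-binding matrix protein of stellate and endothelial cells. In whole liver RNA, fewer cells of a type and less RNA per cell cannot be told apart.

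Promoters of 2 contractile genes and of Sparc are shown because Acta2 and Des are textbook targets of serum response factor, which binds the CArG box, and because Sparc was lower with SLIT2 in both settings described below. Each sequence is RefSeq's on GRCm38.p6 and runs 5′ to 3′ from 250 bases before the annotated start to 50 bases after it, with matches to the searched motifs in capitals. The Acta2 window is chr19:34255324-34255623 (minus strand), the Des window chr1:75360042-75360341 (plus strand) and the Sparc window chr11:55420031-55420330 (minus strand).
Acta2: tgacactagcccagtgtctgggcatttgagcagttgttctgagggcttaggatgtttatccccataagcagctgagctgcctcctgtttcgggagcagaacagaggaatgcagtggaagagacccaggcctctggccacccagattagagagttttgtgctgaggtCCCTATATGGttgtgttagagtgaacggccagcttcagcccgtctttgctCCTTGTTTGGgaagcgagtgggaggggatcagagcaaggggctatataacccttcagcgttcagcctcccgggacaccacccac
Des: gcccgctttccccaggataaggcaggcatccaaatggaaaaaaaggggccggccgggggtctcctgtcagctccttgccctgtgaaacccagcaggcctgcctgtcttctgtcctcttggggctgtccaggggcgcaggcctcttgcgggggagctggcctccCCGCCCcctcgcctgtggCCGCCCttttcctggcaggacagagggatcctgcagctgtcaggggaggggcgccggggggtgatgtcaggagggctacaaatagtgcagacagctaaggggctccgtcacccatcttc
Sparc: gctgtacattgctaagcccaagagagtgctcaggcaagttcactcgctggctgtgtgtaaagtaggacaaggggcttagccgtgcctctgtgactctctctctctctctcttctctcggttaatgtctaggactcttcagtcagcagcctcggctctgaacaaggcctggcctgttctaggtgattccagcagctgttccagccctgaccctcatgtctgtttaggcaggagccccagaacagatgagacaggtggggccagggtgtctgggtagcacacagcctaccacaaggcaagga

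The capitals in Acta2 mark 2 CArG-like stretches, which are CArG boxes with 1 core letter free, at positions -84 to -75 and -34 to -25 from the start. In Des they mark the letters CCGCCC, the reverse complement of the SP1 motif GGGCGG, at -87 to -82 and -69 to -64. The Sparc window held none of the 5 motifs searched on both strands. These were the CArG box (in 1.63% of 32851 RefSeq promoter windows of the same length), the CArG-like form (9.98%, defined after the sequences had been read, and including the CArG box), TGANTCA for AP-1 (7.81%), GGGCGG for SP1 (35.7%) and TATAAA (13.6%). Entries for 7 of the 10 genes were searched. Col1a2 and Lrat each held 1 CArG-like stretch and 2 SP1 matches, Timp1 held 1 SP1 match and Col3a1 held TATAAA. A match is a run of letters and was not measured here as a binding site.

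Depth lay between 60.82 and 100.5 M counts a library, where 1 M is 1000000. The SLIT2 libraries were the shallowest, with 62.0 ± 1.73 M counts (SD, n = 2) against 98.0 ± 3.59 M in control libraries, and 13 mitochondrially encoded genes took 64.6 ± 6.22% of their counts against 16.6 ± 0.919% in control libraries. These genes took 27.7 ± 3.68% of counts in SLIT2+APAP libraries and 14.2 ± 1.06% in APAP libraries. Every SLIT2 effect below moves with these shares, and their part in it was not tested beyond the refit without those genes. All 10 defining stellate cell markers (Lrat, Reln, Des, Pdgfrb, Rgs5, Colec11, Hand2, Lhx2, Cygb and Ngfr) were above 0 in all 8 libraries, with a summed level of 53.6 and 67.1 CPM in SLIT2+APAP, 68.3 and 70.5 CPM in APAP, 43.4 and 42.5 CPM in SLIT2, and 108 and 59.3 CPM in control libraries. Des carried 46.2 of the 108 CPM in control library 1, and without it the other 9 summed to 51.2 and 63.3 CPM in SLIT2+APAP, 66.6 and 67.6 CPM in APAP, 38.6 and 39.5 CPM in SLIT2, and 61.5 and 51.5 CPM in control libraries. Of the 10 stellate cell markers, 6 had a negative fold change and 4 a positive one in SLIT2 against control. The split was the same in SLIT2+APAP against APAP. Marker genes of portal fibroblasts and mesothelium, which also make collagen, summed to 39.5 and 37.7 CPM in SLIT2+APAP, 31.5 and 51.2 CPM in APAP, 22.1 and 23.8 CPM in SLIT2, and 21.7 and 23.4 CPM in control libraries. Gas6 carried the higher sums with APAP, and without it the other 9 of these genes summed to 5.96 and 6.39 CPM in SLIT2+APAP, 8.24 and 5.53 CPM in APAP, 13.7 and 14.1 CPM in SLIT2, and 9.24 and 7.40 CPM in control libraries. Wt1 made up most of the SLIT2 values, at 9.13 and 9.41 CPM in SLIT2 and 0.393 and 0.368 CPM in control libraries. In SLIT2 against control, 7 of the 10 portal fibroblast and mesothelium genes had a negative fold change and 3 a positive one. CPM are counts per 1000000 counts on library sizes scaled by TMM (trimmed mean of M-values).

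Tagln was lower in livers given SLIT2, with or without APAP. Its protein, transgelin, binds actin filaments in smooth muscle and myofibroblasts (ENSMUSG00000032085, chr9:45929619-45936058 on GRCm38, minus strand). The level of Tagln was 1.49 and 2.69 CPM in SLIT2+APAP libraries, 7.96 and 7.29 CPM in APAP libraries, 1.68 and 1.09 CPM in SLIT2 libraries, and 4.16 and 5.78 CPM in control libraries. All 4 libraries with SLIT2 lay below all 4 without it. Tagln fell by 1.86 ± 0.38 (SE) on the log2 scale in SLIT2+APAP against APAP (fold 0.275, adjusted p = 0.02017, edgeR's quasi-likelihood test with Benjamini-Hochberg adjustment over all genes tested). It fell by 1.84 ± 0.39 in SLIT2 against control (fold 0.28, adjusted p = 0.004741). The difference between those SLIT2 effects, the interaction, was -0.02 ± 0.54 on the log2 scale, with a 95% interval of -1.26 to 1.21 (adjusted p = 0.9816). The call with APAP was lost without SLIT2+APAP library 1 (adjusted p = 0.1417) or without SLIT2+APAP library 2 (adjusted p = 0.1029). Tagln overlaps Pcsk7 on the opposite strand, which held 8156 counts over the 8 libraries, and since the strand setting of the counting is not given in the sources used here, reads of the pair could be mixed. Hepatocyte markers (8 genes) also moved with SLIT2, at 68600 and 65400 CPM in SLIT2+APAP against 113000 and 88500 CPM in APAP libraries and 14300 and 8390 CPM in SLIT2 against 55300 and 74300 CPM in control libraries, and their part in the level of Tagln was not tested.

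Acta2 encodes the smooth muscle actin that marks myofibroblasts (ENSMUSG00000035783, chr19:34241090-34255590, minus strand). Its libraries with SLIT2 overlapped those without it. It had 0.951 and 3.05 CPM in SLIT2+APAP, 1.72 and 2.39 CPM in APAP, 2.34 and 0.688 CPM in SLIT2, and 3.09 and 7.58 CPM in control libraries. The highest values were both control libraries, and the libraries within each group with SLIT2 differed by more than the 2 APAP libraries did. Both control libraries also held skeletal muscle transcripts, at 1180 and 132 CPM in 14 genes, and the part of these in Acta2 was not tested. In SLIT2+APAP against APAP the fold change was -0.03 ± 0.71 on the log2 scale, with a 95% interval of -1.67 to 1.61. In SLIT2 against control it was -1.80 ± 0.73 (adjusted p = 0.06727 in edgeR and 0.02262 in DESeq2). Over the alternatives it ran from -2.95, without SLIT2 library 1, to -1.01. In APAP against control it was -1.37 ± 0.71 (adjusted p = 0.2727 in edgeR). The interaction was 1.77 ± 1.01 (95% interval -0.57 to 4.11, adjusted p = 0.2148 in edgeR), so SLIT2's effects on Acta2 with and without APAP were not told apart.

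Des (ENSMUSG00000026208, chr1:75360329-75368579, plus strand) stood highest in 1 library. Its level was 2.42 and 3.78 CPM in SLIT2+APAP, 1.66 and 2.88 CPM in APAP, 4.87 and 2.95 CPM in SLIT2, and 46.2 and 7.82 CPM in control libraries, so control library 1 stood far above the rest. The summed level of 14 skeletal muscle genes (Ckm, Mb, Acta1, Tnnt3 and others) moved with it: 1.15 and 2.74 CPM in SLIT2+APAP, 1.75 and 0.835 CPM in APAP, 1.80 and 1.39 CPM in SLIT2, and 1180 and 132 CPM in control libraries. Ckm, the muscle creatine kinase, had 180 and 18.7 CPM in control libraries and at most 0.205 CPM elsewhere. Des passed the test in SLIT2 against control, where it fell by 2.79 ± 0.76 on the log2 scale (fold 0.145, adjusted p = 0.01489). Without control library 1 the fold change was -1.0 and the call was lost (adjusted p = 0.1618), and it was also lost without SLIT2 library 1 (0.05972), SLIT2 library 2 (0.118) or APAP library 4 (0.05912) and under the replicate block (0.09562). In APAP against control it was -3.57 ± 0.78 (adjusted p = 0.06671), or -1.78 without control library 1 and -4.36 without control library 2, where it passed (adjusted p = 0.01165). In SLIT2+APAP against control it was -3.12 ± 0.76 (adjusted p = 0.07399), or -1.34 without control library 1 and -3.92 without control library 2, where it passed (adjusted p = 0.0181). Even control library 2, with muscle transcripts at 132 CPM, held more Des than the 6 treated libraries, and the part of the muscle transcripts in either value was not tested. Between the APAP-treated groups, where the muscle genes summed to at most 2.74 CPM, Des differed by 0.45 ± 0.73 (95% interval -1.23 to 2.12).

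**Figure D1:**
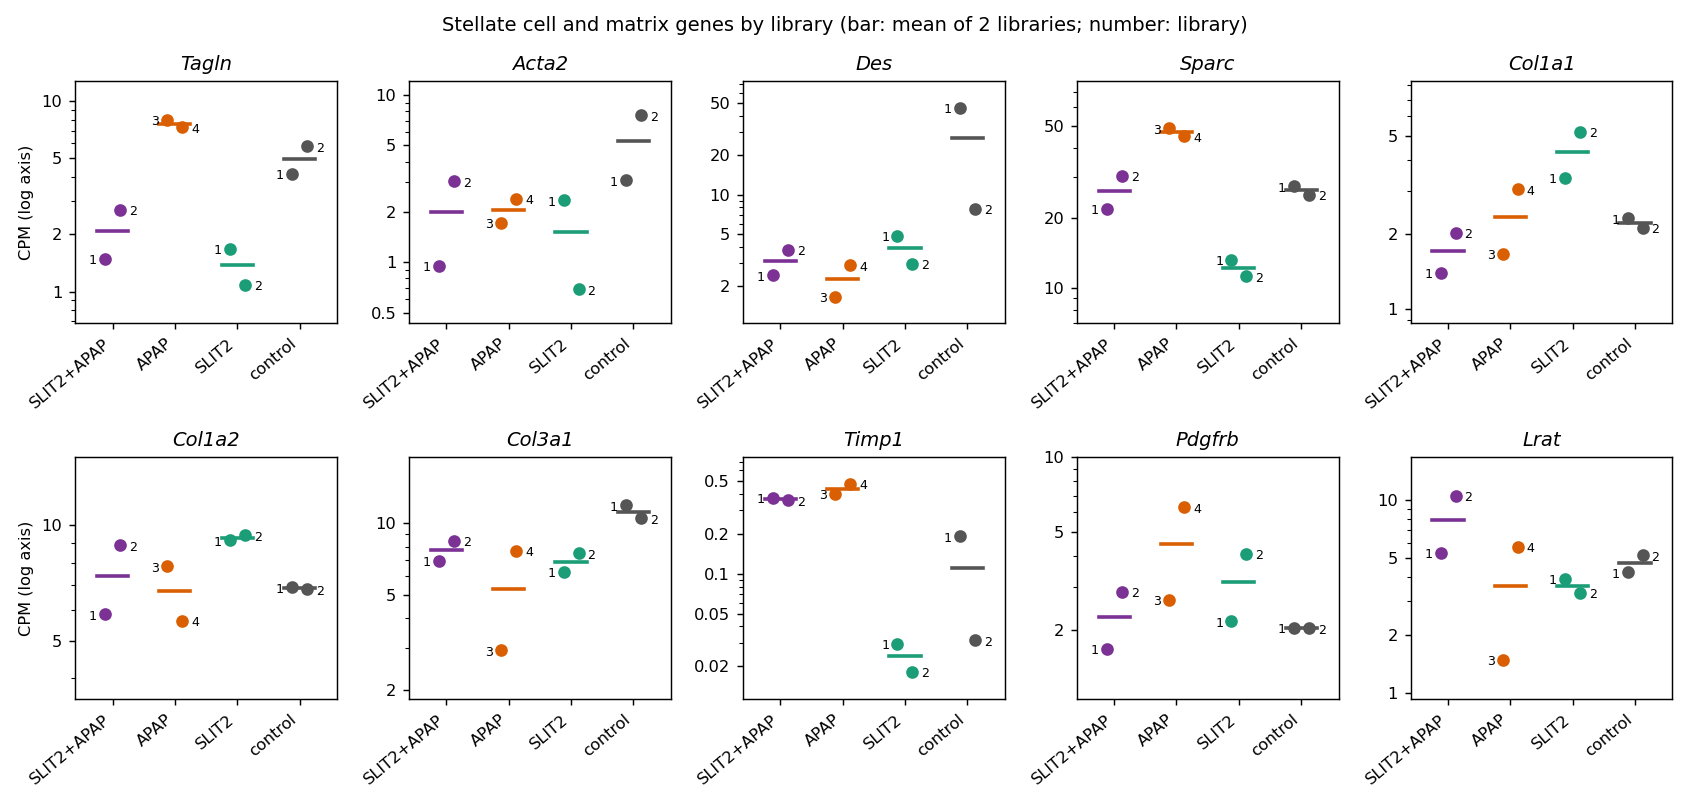
Level of each of the 10 genes in CPM (log axis, a scale of its own per gene) in the 2 libraries of SLIT2+APAP, APAP, SLIT2 and control livers. Points are libraries with their number and bars are group means; Tagln is lower in all 4 libraries with SLIT2 than in all 4 without it, and Des is highest in control library 1 at 46.2 CPM.

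**Figure D2:**
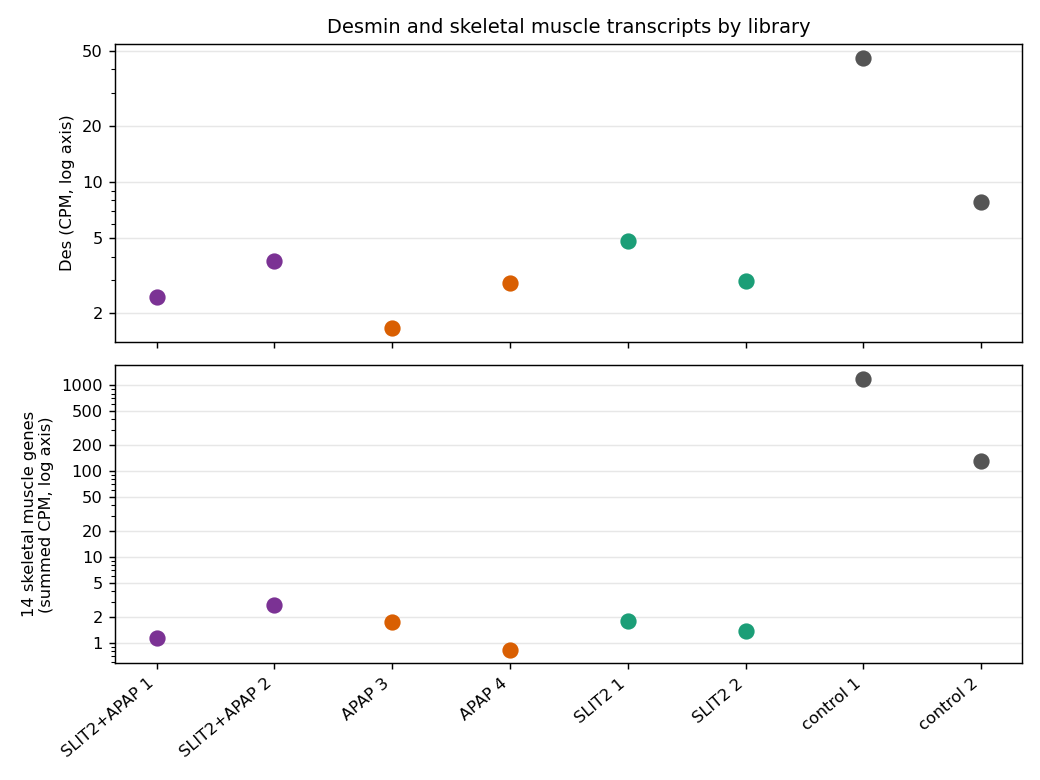
Level of Des (upper panel) and the summed level of 14 skeletal muscle genes (lower panel) in each library, both in CPM on log axes. Control libraries 1 and 2 are highest in both panels, at 46.2 and 7.82 CPM for Des and 1180 and 132 CPM for the muscle genes.

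Sparc, a collagen-binding glycoprotein that shapes matrix assembly (ENSMUSG00000018593, chr11:55394500-55423183, minus strand), was the 1 matrix gene of the 10 to pass the test, with SLIT2 in both settings. Its level was 21.9 and 30.3 CPM in SLIT2+APAP, 48.7 and 44.9 CPM in APAP, 13.2 and 11.2 CPM in SLIT2, and 27.4 and 25.1 CPM in control libraries. The APAP libraries were highest, the SLIT2 libraries lowest, and the SLIT2+APAP libraries lay on either side of the control libraries. Sparc fell by 0.84 ± 0.22 on the log2 scale in SLIT2+APAP against APAP (fold 0.559, adjusted p = 0.04406), and by 1.10 ± 0.23 in SLIT2 against control (fold 0.466, adjusted p = 0.004222). The interaction was 0.26 ± 0.31 (95% interval -0.46 to 0.99). The fall without APAP passed the test in 15 of 15 alternatives, whereas the fall with APAP passed in 4 of 15, being lost without either library of the SLIT2+APAP, SLIT2 or control group, with an adjusted p of up to 0.267 without SLIT2+APAP library 1. In APAP against control Sparc was 0.83 ± 0.22 higher on the log2 scale with both libraries above both control libraries, short of the threshold in edgeR (adjusted p = 0.09017) and past it in DESeq2 (0.04043) or without APAP library 4 (0.02117). In SLIT2+APAP against control the difference was -0.01 ± 0.22 (95% interval -0.52 to 0.51).

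None of the fibrillar collagens, the bulk protein of scar tissue, followed Sparc in every comparison. In SLIT2 against control Col3a1 alone of them had a negative fold change, as Sparc did. Col1a1, the alpha 1 chain of type I collagen (ENSMUSG00000001506, chr11:94936224-94953042, plus strand), had 1.40 and 2.03 CPM in SLIT2+APAP, 1.67 and 3.04 CPM in APAP, 3.39 and 5.20 CPM in SLIT2, and 2.32 and 2.13 CPM in control libraries. Both SLIT2 libraries were the highest of the 8, yet the difference of 0.94 ± 0.39 on the log2 scale from control missed the threshold (adjusted p = 0.07281). Col1a2, the alpha 2 chain of the same protein (ENSMUSG00000029661, chr6:4504814-4541544, plus strand), had 5.87 and 8.87 CPM in SLIT2+APAP, 7.82 and 5.64 CPM in APAP, 9.13 and 9.43 CPM in SLIT2, and 6.89 and 6.81 CPM in control libraries. Its 4 pairwise fold changes lay between -0.03 and 0.44 on the log2 scale. Col3a1, the chain of type III collagen (ENSMUSG00000026043, chr1:45311538-45349706, plus strand), had 6.96 and 8.46 CPM in SLIT2+APAP, 2.93 and 7.66 CPM in APAP, 6.28 and 7.50 CPM in SLIT2, and 11.9 and 10.5 CPM in control libraries. Both control libraries were above the 6 treated ones. Those control libraries also held skeletal muscle transcripts (1180 and 132 CPM in 14 genes). They held the adipose marker Cfd at 2.76 and 1.44 CPM, against at most 0.0442 CPM elsewhere. The part of such tissue in Col3a1 was not tested. In APAP against control Col3a1 was -1.08 ± 0.41 (adjusted p = 0.1609 in edgeR). That value depended on which APAP library was kept. It was -1.93 without library 4, a fit that leaves 1 APAP library, and ran from -1.93 to -0.55 over the alternatives. The difference in SLIT2 against control was -0.70 ± 0.41 (adjusted p = 0.1779), and it passed without APAP library 3 (0.009641) or 4 (0.01041) or under the replicate block (0.01172), as did Col1a1 (0.01922, 0.02072 and 0.01993).

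Timp1, the metalloproteinase inhibitor (ENSMUSG00000001131, chrX:20870166-20874735, plus strand), was the scarcest of the 10 genes. It had 0.375 and 0.358 CPM in SLIT2+APAP, 0.399 and 0.476 CPM in APAP, 0.0295 and 0.0181 CPM in SLIT2, and 0.191 and 0.0315 CPM in control libraries. All 4 libraries with APAP were above all 4 without it. The APAP value was 2.01 ± 0.61 above control on the log2 scale (adjusted p = 0.1003) and the SLIT2+APAP value 1.75 ± 0.62 above control (adjusted p = 0.1522), neither past the threshold. Between SLIT2+APAP and APAP the difference was -0.26 ± 0.52 (95% interval -1.45 to 0.93). The SLIT2 group held 3 counts in all against 19 in the control group, a ratio of 0.23 with a 95% counting interval of 0.0435 to 0.78, and 16 of the control counts came from library 1. Timp1 lies inside Syn1, which is on the opposite strand and had 116 counts over the 8 libraries.

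Pdgfrb, the receptor through which platelet-derived growth factor drives stellate cell division (ENSMUSG00000024620), had 1.69 and 2.86 CPM in SLIT2+APAP, 2.66 and 6.28 CPM in APAP, 2.18 and 4.07 CPM in SLIT2, and 2.05 and 2.04 CPM in control libraries. APAP library 4 was the highest and no pair of groups passed the test. In SLIT2+APAP against APAP the fold change was -0.97 ± 0.49 on the log2 scale (adjusted p = 0.2084 in edgeR). It was -1.46 without APAP library 3 and ran from -1.46 to -0.22 over the alternatives. Lrat, the enzyme that esterifies retinol for storage (ENSMUSG00000028003, chr3:82892579-82903973, minus strand), had 5.34 and 10.5 CPM in SLIT2+APAP, 1.48 and 5.72 CPM in APAP, 3.89 and 3.30 CPM in SLIT2, and 4.22 and 5.17 CPM in control libraries. APAP library 3 was the lowest and SLIT2+APAP library 2 the highest. The fold change of Lrat in SLIT2+APAP against APAP was 1.13 ± 0.58 (adjusted p = 0.2125 in edgeR). It was 2.42 without APAP library 4 and ran from 0.47 to 2.42 over the alternatives. Col3a1 stood at 1.40 without that library and ran from 0.01 to 1.40. In APAP against control Lrat was -1.66 without APAP library 4, and its sign turned within a range of -1.66 to 0.28 over the alternatives. Each of these leave-outs rests on 1 APAP library. In Col3a1, Pdgfrb and Lrat the 2 APAP libraries thus stood apart from each other. They also differed in the summed level of 9 sinusoidal endothelial genes, at 140 CPM in library 3 and 57.1 CPM in library 4. The fat-droplet gene Cidec made up nearly all of an adipose sum of 123 CPM in library 3, against 2.58 CPM in library 4. The part of these differences in the 3 genes was not tested.

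**Figure D3:**
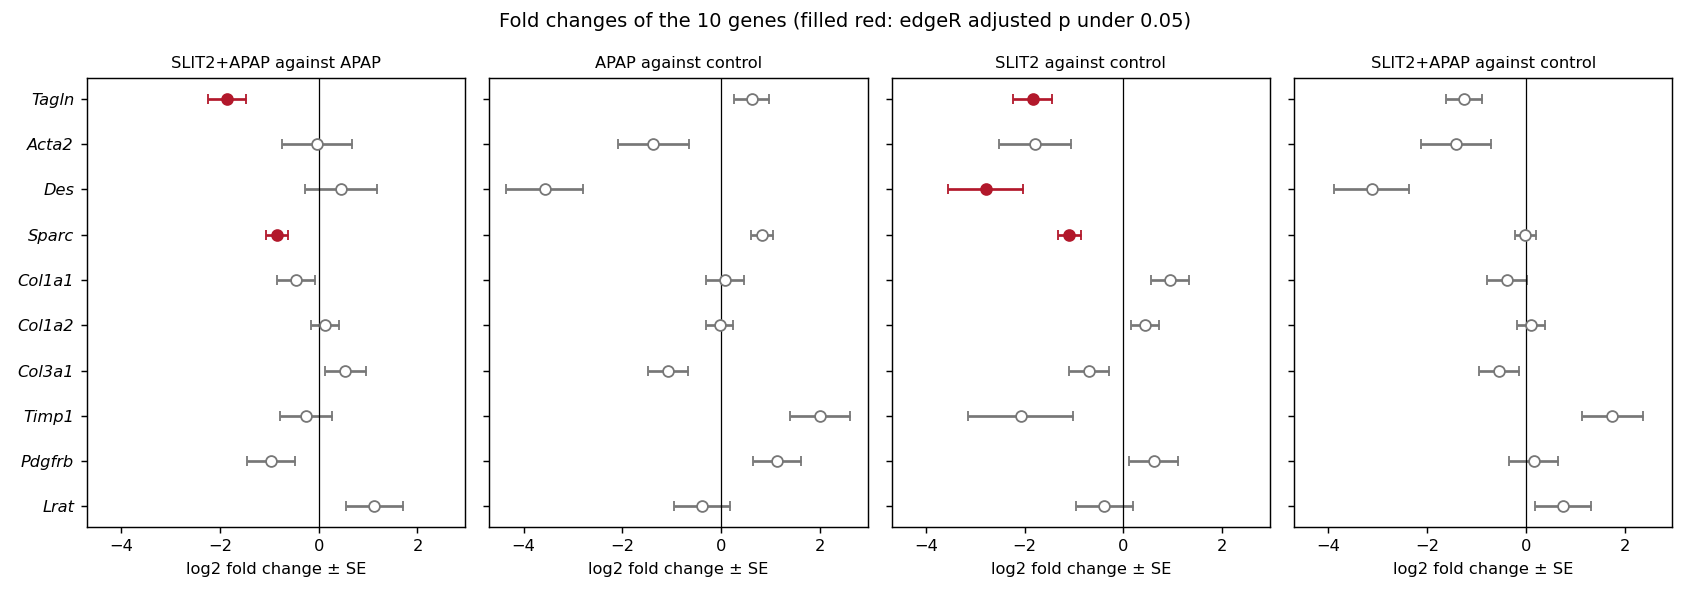
Log2 fold change ± SE of the 10 genes in SLIT2+APAP against APAP, APAP against control, SLIT2 against control and SLIT2+APAP against control (positive is higher in the group named first). Filled red points passed an edgeR adjusted p of 0.05: Tagln and Sparc in SLIT2+APAP against APAP, and Tagln, Sparc and Des in SLIT2 against control.

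Whether SLIT2 altered these genes in livers given APAP was read from SLIT2+APAP against APAP. Of the 10 genes, 2 fell (Tagln and Sparc) and 0 rose, beside 13.9% of all genes tested that passed in either direction and 7.64% that fell. Both SLIT2+APAP libraries were below both APAP libraries in 3 genes (Tagln, Sparc and Timp1) and above them in 0, beside 29.4% and 28.8% of all genes tested. The median log2 fold change was -0.15 over the 10 genes and -0.06 over all genes tested. For 1 gene and 2 libraries a group, the smallest p that exact two-sided permutation allows is 0.333.

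Without APAP, SLIT2 against control gave the most calls. Of the 10 genes, 3 fell (Tagln, Sparc and Des) and 0 rose, beside 54.9% of all genes tested that passed in either direction and 27.6% that fell, so the share of the 10 that fell was close to that of all genes. The SLIT2 libraries were below both control libraries in 7 genes and above them in 3, so that none of the 10 overlapped, beside 41.4% and 41.2% of all genes tested. The median was -0.90 over the 10 genes and 0 over all genes tested. The 3 genes above control were Col1a1, Col1a2 and Pdgfrb.

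APAP against control asked what the injury did to these genes after 24 h. None of the 10 passed in edgeR (0 of 10, beside 0.788% of all genes tested), 4 had an unadjusted p under 0.05 (Des, Sparc, Timp1 and Col3a1), and DESeq2 called 2 (Sparc and Des). Both APAP libraries were above both control libraries in 4 genes (Timp1, Pdgfrb, Sparc and Tagln) and below them in 3 (Des, Acta2 and Col3a1), beside 26.9% and 26.1% of all genes tested. The median was 0.03 over the 10 genes and 0.05 over all genes tested. This comparison shares the APAP libraries with SLIT2+APAP against APAP and the control libraries with the other comparisons to control, so their fold changes are not independent.

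SLIT2+APAP against control also called 0 of the 10 in edgeR, beside 2.16% of all genes tested, with 3 at an unadjusted p under 0.05 (Tagln, Des and Timp1) and 2 called by DESeq2 (Tagln and Des). Both SLIT2+APAP libraries were above both control libraries in 2 genes (Timp1 and Lrat) and below them in 5, beside 35.2% and 32.3% of all genes tested. Tagln was -1.25 ± 0.37 on the log2 scale (adjusted p = 0.1143), and it passed without APAP library 3 (0.04511) or 4 (0.04601). The interaction, SLIT2's effect with APAP minus its effect without, was called for 0 of the 10 genes, beside 28.8% of all genes tested, with 2 at an unadjusted p under 0.05 (Des and Col1a1). For Des it was 3.23 ± 1.04 (adjusted p = 0.05003), 1.45 without control library 1 (adjusted p = 0.1796), and DESeq2 called it (0.003274). For Col1a1 it was -1.40 ± 0.56 (adjusted p = 0.09137). Interactions past the threshold appeared for Des without control library 2 (0.02255), for Col1a1 (0.01897) and Pdgfrb (0.02129) without APAP library 3, and for Col3a1 (0.001191) and Lrat (0.003471) without APAP library 4.

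Per kilobase of exon, which allows levels of different genes to be compared, Sparc had the highest level of the 10 genes in every group but control, where the mean of Des was higher. It averaged 6.90 ± 1.57 CPM per kb in SLIT2+APAP, 12.4 ± 0.692 in APAP, 3.23 ± 0.376 in SLIT2 and 6.94 ± 0.439 in control livers (SD, n = 2 each). In APAP livers Tagln followed at 3.83 ± 0.239 CPM per kb, and Acta2 (0.936 ± 0.215), Pdgfrb (0.815 ± 0.467), Lrat (0.673 ± 0.560), Des (0.604 ± 0.229), Col1a2 (0.542 ± 0.124), Col3a1 (0.540 ± 0.341), Timp1 (0.493 ± 0.0612) and Col1a1 (0.359 ± 0.148) came after it. From Acta2 down, neighbours in that order differed by less than the larger of their SDs. In SLIT2+APAP livers the 9 genes other than Sparc ran from Lrat (1.48 ± 0.680), Tagln (1.05 ± 0.427), Acta2 (0.911 ± 0.676) and Des (0.825 ± 0.256) down to Timp1 (0.413 ± 0.0138) and Col1a1 (0.261 ± 0.0673). In SLIT2 livers Des followed Sparc (1.04 ± 0.361), 7 genes lay close together between Col1a2 (0.747 ± 0.0174) and Pdgfrb (0.571 ± 0.244), and Timp1 was last (0.0268 ± 0.00907). In control livers Des averaged 7.20 ± 7.23 CPM per kb, with an SD as large as its mean, Tagln 2.5 ± 0.577, Acta2 2.43 ± 1.45, Col3a1 1.14 ± 0.0986 and Lrat 0.878 ± 0.126. Col1a2 (0.551 ± 0.00431), Pdgfrb (0.373 ± 0.00133), Col1a1 (0.340 ± 0.0204) and Timp1 (0.125 ± 0.127) closed that order, in which Des and Sparc, Tagln and Acta2, and Acta2 and Col3a1 differed by less than the larger of their SDs.

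The 3 fibrillar collagens served as a pattern against which other genes were ranked, by the root mean square difference of centred log2 CPM from their mean over the 8 libraries. Among 8350 genes with a mean of at least 5 CPM the nearest were Patj (0.126), Irf9 (0.128), Tom1l2 (0.134), Gtf2a1 (0.136) and Gnl3l (0.146), against a median of 0.726. The collagens themselves lay at 0.315 (Col1a2), 0.343 (Col1a1) and 0.434 (Col3a1), farther from their own mean than those 5 genes. Pdgfrb (0.579), Lrat (0.706), Sparc (0.946), Acta2 (1.04), Tagln (1.21), Des (1.29) and Timp1 (1.96) were farther away. The 8 libraries that carry this likeness are shared by all genes.

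Other matrix genes were examined as lists, chosen with results of these data known. In SLIT2+APAP against APAP, 2 of 14 other collagens fell and 0 rose, beside 7.64% of all genes tested that fell and 13.9% called in either direction. These were Col4a1 and Col4a2, chains of the basement membrane collagen, and Col4a1 had 4.92 and 5.73 CPM in SLIT2+APAP and 29.4 and 13.2 CPM in APAP libraries. It fell by 2.00 ± 0.37 on the log2 scale (adjusted p = 0.01582), and Col4a2 fell by 1.55 ± 0.36 (adjusted p = 0.02959). Among 24 matrix glycoproteins and proteoglycans 4 fell (Nid1, Bgn, Fn1 and Thbs1) and 0 rose. Nid1, which links laminin to collagen in basement membranes, had 2.24 and 2.80 CPM in SLIT2+APAP and 9.40 and 8.28 CPM in APAP libraries and fell by 1.81 ± 0.29 (adjusted p = 0.01103). The proteoglycan biglycan, Bgn, had 10.5 and 11.6 CPM against 52.5 and 30.3 CPM and fell by 1.90 ± 0.30 (adjusted p = 0.01103). Of 15 crosslinking and collagen-processing genes 0 passed. Col4a1, Nid1 and Bgn were called in 13 of 15 alternatives and lost their call when either SLIT2+APAP library was left out (adjusted p up to 0.1467). Col4a2 was called in 7 of 15, being lost with GC offsets, without the SLIT2 libraries and without any 1 library of the SLIT2+APAP, SLIT2 or control group (adjusted p up to 0.2005).

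Among 20 matrix proteases and inhibitors in SLIT2+APAP against APAP, where 6.29% of all genes tested rose and 7.64% fell, 1 rose (Mmp12, the macrophage elastase) and 3 fell, Timp2, an inhibitor of metalloproteinases, and the protease gene Adamts1 among them. Among 18 smooth muscle and contractile genes 5 fell with SLIT2 in APAP livers (Actg1, Vcl, Myl9, Flna and Myh9) and 0 rose. Actg1, the cytoplasmic gamma actin, had 32.3 and 39.6 CPM in SLIT2+APAP and 199 and 309 CPM in APAP libraries and fell by 2.82 ± 0.29 (adjusted p = 0.004758). Of 25 genes of TGF-beta and PDGF signalling 1 rose (Itgb6, an integrin chain that activates TGF-beta) and 2 fell (Skil, a brake on SMAD proteins, and the receptor gene Tgfbr2). Tgfbr2 had 4.53 and 3.96 CPM in SLIT2+APAP and 43.8 and 8.40 CPM in APAP libraries 3 and 4. Adamts1 had 1.43 and 1.57 CPM against 16 and 4.33 CPM, so both genes were far higher in APAP library 3 than in library 4. How the calls of Tgfbr2 and Adamts1 held in the alternatives was not examined. Vcl was also higher in APAP library 3 (22.2 CPM) than in library 4 (5.27 CPM). Without SLIT2+APAP library 2 the calls of Mmp12, Actg1, Vcl, Itgb6 and Skil were lost, and those of Mmp12, Vcl and Skil were also lost without several other libraries. Of 20 quiescent stellate cell and retinoid genes 0 passed.

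In SLIT2 against control, where 54.9% of all genes tested were called, matrix glycoproteins and proteoglycans had 15 of 24 lower and 0 higher, beside 27.6% lower among all genes, with a median log2 fold change of -1.61 beside 0 over all genes tested. Fn1, fibronectin, had 100 and 93.1 CPM in SLIT2 and 668 and 594 CPM in control libraries and fell by 2.71 ± 0.37 (adjusted p = 0.0006369). Fn1 is also made by hepatocytes, whose summed markers were lower in the same libraries, and the part of that in the list was not tested. Other collagens split, with 2 of 14 higher (Col5a3 and Col5a1) and 2 lower (Col4a1 and Col14a1), as did crosslinking and collagen-processing genes, with 5 of 15 higher and 6 lower. Proteases and inhibitors had 3 of 20 higher and 2 lower, signalling genes 5 of 25 and 6, contractile genes 3 of 18 and 6, and quiescent stellate cell and retinoid genes 3 of 20 and 6. Rbp4, the plasma retinol carrier that hepatocytes secrete, fell by 3.01 ± 0.29 (adjusted p = 0.0001589), and Adra1a, an adrenergic receptor, rose by 3.46 ± 0.27 (adjusted p = 0.0001027). In APAP against control these lists held 2 calls, Tpm2, which fell, among them, and in SLIT2+APAP against control also 2 (Mmp12 up and Tpm2 down), beside 0.788% and 2.16% of all genes tested. Mmp12 and Tpm2 were each called in 7 of 16 alternatives of SLIT2+APAP against control, and both calls were lost without control library 1, either SLIT2 library or either SLIT2+APAP library (adjusted p up to 0.4407 for Mmp12 and 0.4382 for Tpm2). That of Mmp12 was also lost without control library 2 and that of Tpm2 without APAP library 4. Tpm2, a tropomyosin of muscle, had 87.2 and 14.4 CPM in control libraries, the 2 with skeletal muscle transcripts, and at most 3.22 CPM elsewhere, and its call in APAP against control was lost without control library 1, among other alternatives.

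**Figure D4:**
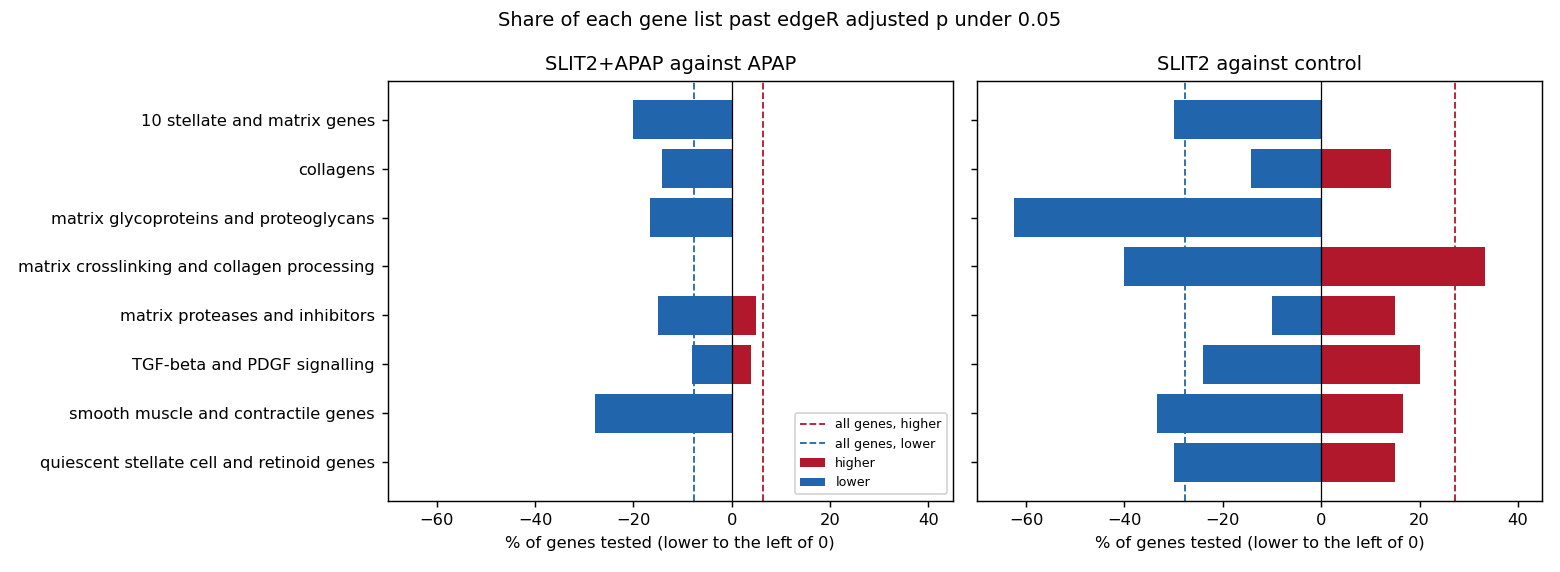
Share of each gene list past an edgeR adjusted p of 0.05 (percent of genes tested, lower to the left of 0 and higher to the right) in SLIT2+APAP against APAP and in SLIT2 against control. Dashed lines mark the share of all genes tested; matrix glycoproteins and proteoglycans reach farthest to the left in SLIT2 against control, with 15 of 24 genes.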

How the data were processed

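Liver RNA was made into libraries with a directional kit, per the labels' protocols. The deposited table holds raw whole-number counts per Ensembl gene in 1 column per library, and the submitters' processing notes list Cuffdiff 2.2.1, Cufflinks, STAR 2.5.4 and mm10, with no role for any of them. How reads were counted, on which annotation and strand, and what was done with multi-mapping reads is not given in the sources used here. Rounding shows in the top counts, since 72 of the 93 that reach 1000000 end in 0. Symbols, coordinates and exon lengths were taken from GENCODE M21 on GRCm38, which matched 22341 of 23006 identifiers, and promoters from RefSeq.

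The analysis ran in R 4.3.3. After edgeR 4.0.16's filterByExpr (4 groups) and TMM scaling, counts were fitted with 1 mean per group over all 8 libraries (robust quasi-likelihood fit, legacy = FALSE, 4 residual degrees of freedom). Calls required a p under 0.05 after Benjamini-Hochberg adjustment over the 16876 genes of the comparison. The steps were run on simulated counts in which genes were changed in the APAP group alone. These counts lacked SLIT2 changes and the raised mitochondrial share of the SLIT2 libraries, so they do not test the steps under those conditions. Intervals of fold changes are 95% intervals from the fitted SE, and the counting interval of Timp1 covers counting error alone, because without molecular identifiers reads are no independent molecules. Alternatives were DESeq2 1.42.0, its size factors in edgeR, no count filter, no mitochondrially encoded genes, offsets for GC content, no SLIT2 libraries, a replicate block, each library left out and, chosen after seeing the data, library totals. The 10 genes, the lists and the tests were chosen with earlier results of these data known. Named beyond the 10 genes are the called list members with the smallest p (up to 2 per list and comparison), members that make up a count of 5 or fewer, and the 5 genes nearest the collagens; 1 gene this rule would name is not reported here. Figures were drawn with matplotlib 3.10.9.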

Additional observations from a re-analysis of the deposited data

Results flagged for a closer look

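The interaction (log2 scale, SLIT2+APAP minus APAP less SLIT2 minus control) was called by edgeR's test for 0 of the 10 genes, beside 28.8% of all genes tested. It was called for 11 named genes of the matrix, contractile and stellate cell lists. These are up to 2 per list with the smallest p, so their number is no share. Calls higher and lower were 0 and 1 of 14 collagens, 1 and 0 of 24 glycoproteins and proteoglycans, and 3 and 4 of 15 crosslinking genes. They were 0 and 4 of 20 proteases and inhibitors, 0 and 2 of 25 signalling genes, 1 and 3 of 18 contractile genes, and 1 and 1 of 20 quiescent stellate cell genes. No explanation was tested, and the libraries without APAP that received SLIT2 were those in which mitochondrially encoded genes took 64.6 ± 6.22% of counts.

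For 7 genes the SLIT2 effect was a rise without APAP, larger than the value with it. P4ha2, a collagen prolyl hydroxylase, had an effect of -0.16 with APAP and 3.25 without it, an interaction of -3.41 ± 0.33 (SE, adjusted p = 0.003125). Adra1a had 0.31 and 3.46, an interaction of -3.15 ± 0.36 (adjusted p = 0.003341). Mmp12 had 1.20 and 4.00, an interaction of -2.81 ± 0.41 (adjusted p = 0.004895). P3h3, a collagen prolyl hydroxylase of another family, had -0.90 and 1.86, an interaction of -2.76 ± 0.46 (adjusted p = 0.00696). Col5a3 had 1.01 and 3.26, an interaction of -2.25 ± 0.52 (adjusted p = 0.01804). Itgb6 had 2.98 and 4.75, an interaction of -1.77 ± 0.44 (adjusted p = 0.02238). Pdgfa, a ligand of PDGF receptors, had -0.37 and 1.49, an interaction of -1.87 ± 0.51 (adjusted p = 0.03086). P4ha2, Adra1a, Mmp12 and P3h3 were called in 14 of 14 alternatives. Col5a3 and Itgb6 were called in 10 (adjusted p up to 0.07729 and 0.09901) and Pdgfa in 9 (up to 0.1238). These 3 were lost without control library 1, SLIT2 library 2 or SLIT2+APAP library 1, Itgb6 and Pdgfa also without control library 2, and Col5a3 and Pdgfa also without SLIT2+APAP library 2.

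Vcl, the adhesion protein vinculin, had -2.38 with APAP and 1.84 without it, an interaction of -4.23 ± 0.81 (adjusted p = 0.01024). Its APAP libraries 3 and 4 stood apart at 22.2 and 5.27 CPM, against 2.88 and 2.38 CPM in SLIT2+APAP libraries. Tpm2, Rbp4 and Vtn fell with SLIT2 where no APAP was given. Tpm2 had 0.47 and -5.60, an interaction of 6.07 ± 1.03 (adjusted p = 0.007285), with skeletal muscle transcripts in both control libraries. Rbp4 had -0.72 and -3.01, an interaction of 2.29 ± 0.38 (adjusted p = 0.007035), and Vtn, the plasma protein vitronectin, -0.47 and -2.78, an interaction of 2.31 ± 0.63 (adjusted p = 0.02971). Tpm2 and Rbp4 were called in 14 of 14 alternatives. Vcl was called in 12, lost without control library 1 or SLIT2+APAP library 1 (adjusted p up to 0.05725), and Vtn in 10, lost without either library of the control or SLIT2+APAP group (up to 0.1136).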

How the results depend on the processing

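Over 750 alternatives to the 50 fold changes of the 10 genes, 701 kept their side of the threshold, 18 lost a call and 31 gained one, and no called value changed sign; 28 fold changes short of the threshold turned sign. Tagln and Sparc in SLIT2 against control were called in 15 of 15 alternatives, and Tagln in SLIT2+APAP against APAP in 13 of 15. Among the 10 genes, DESeq2's test called 2 in APAP against control, 2 in SLIT2+APAP against control and 1 in the interaction. In SLIT2+APAP against APAP, 1 of the 10 was called, in place of 2, without mitochondrially encoded genes, with GC offsets, without the count filter, without the SLIT2 libraries or on library totals. The lost call was Sparc's, with fold changes of -0.81, -0.67, -0.82, -0.80 and -0.64 in that order, against -0.84. In the interaction 1 was called, in place of 0, without mitochondrially encoded genes or with GC offsets.

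Over all genes, APAP against control called 133, but 72 with GC offsets, 205 without the count filter, 1836 in DESeq2's test, 0 without the SLIT2 libraries (3999 at an unadjusted p under 0.05) and 236 on library totals. SLIT2+APAP against APAP called 2351, but 3532 in DESeq2's test and 1558 without the SLIT2 libraries. SLIT2+APAP against control called 365, but 1455 in DESeq2's test, 3 without the SLIT2 libraries and 2480 with the replicate block. The cause was not tested.

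With 1 library left out, the number called among the 10 and among all genes ran from 0 to 3 and 0 to 5066 in APAP against control, and from 2 to 5 and 6270 to 11272 in SLIT2 against control. It ran from 0 to 4 and 20 to 6013 in SLIT2+APAP against APAP, from 0 to 1 and 2 to 2569 in SLIT2+APAP against control, and from 0 to 2 and 974 to 8311 in the interaction. A group left with 1 library was assumed to vary like the others. The largest numbers in APAP against control, SLIT2+APAP against APAP and the interaction came without APAP library 4.

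The replicate block on the shared numbers 1 and 2, fitted without the APAP libraries, called 4 of the 10 genes in SLIT2 against control (Col1a1 and Col3a1 gained, Des lost) and 0 in SLIT2+APAP against control. Deviations of same-numbered libraries from their group means had an r of 0.067, -0.059 and -0.023 across 16876 genes, which are not independent replicates. With 2 libraries per group, this cannot decide whether a shared number stands for shared handling. Scaling by library totals was chosen after seeing the data. It put the median log2 fold change of all genes at 0.34 in SLIT2+APAP against control, 0.16 in APAP against control, 0.12 in SLIT2+APAP against APAP and 0.11 in SLIT2 against control. The genes higher among those called became 145 of 236 in place of 56 of 133 in APAP against control, 1141 of 1872 in place of 1061 of 2351 in SLIT2+APAP against APAP, and 267 of 390 in place of 121 of 365 in SLIT2+APAP against control. Tagln kept its direction and its calls under it. Depth limits Timp1, with 1 to 49 counts per library.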
